A study of Arabidopsis thaliana with 8 samples.

Results

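Transcript levels of Arabidopsis seedlings 24 h after a priming heat treatment were compared with those 8 h after it, that is, late against early in the memory phase, in which plants keep an increased tolerance to a further heat stress. The comparison used every probe set of the ATH1 array other than the array's own controls, 22746 of 22810, on the 2 primed arrays of 24 h and 8 h. These are 2 of the 8 arrays of the study. The primed seedlings were wild-type Col-0, grown for 5 days on sucrose-containing agar at 22 °C with 16 h of light and 8 h of darkness. They were kept at 37 °C for 1.5 h, at 22 °C for 1.5 h and at 44 °C for 45 min, and then returned to normal growth conditions. Unprimed Col-0 seedlings, harvested at the same 4 times (4, 8, 24 and 48 h), received no heat treatment and are the background here. By the study's methods heat was applied in darkness, and whether the unprimed seedlings were darkened at those times is not given in the labels or methods used, so that heat and darkness cannot be told apart in values of primed against unprimed seedlings. Each array held RNA of 1 pool of whole seedlings and each condition had 1 array. The difference between 24 h and 8 h therefore has no replicate error, it was not tested, and it describes these arrays. A probe set was called higher or lower where its log2 difference was at least 1, which is the 2-fold limit of the study's methods.

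In plants, heat shock factors bind the promoters of chaperone genes when the temperature rises. Small heat shock proteins hold unfolding proteins, HSP70 and HSP90 refold and stabilise them, and HSP101 pulls them out of aggregates. After the heat has gone most of these transcripts decline, and those that persist are thought to contribute to thermomemory. HSP21, a small heat shock protein of plastids, and FtsH6, a plastid metalloprotease that acts on it, are components of this memory in Arabidopsis. Heat also lowers transcripts of photosynthesis, growth and secondary metabolism, which return during recovery. The circadian clock and the time of the last light or dark period set the levels of many of the same genes.

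The deposited values were log2 expression values with a floor of 2.0, and medians of the 8 arrays lay between 6.99 and 7.08. A value within 0.05 of the floor is called at the floor here, and a difference from such a value understates the true one. In both primed arrays of 24 h and 8 h, 5826 probe sets (25.6%) were at the floor. Of the markers, the 3 shoot probe sets (LHCB1, RBCS and RCA) were at 13.28 or more in both primed arrays, the root gene PYK10 was at 14.59 and 13.46 at 24 h and 8 h, and both pollen probe sets were at the floor. PYK10 was the highest of 11 root probe sets, whose medians were 6.74 and 5.67 and whose lowest value was 2.06 at both times. Root and seed lists are given below. The 24 h and 8 h harvests differed in age and in hour of day, which cannot be told apart from the time since priming within the primed pair. The unprimed pair had the same difference in hour and age without heat. Levels of 5′ relative to 3′ control probe sets, a measure of RNA integrity, had a median over 6 pairs of -2.96 at 24 h and -2.83 at 8 h in primed seedlings, against -3.57 and -2.71 in unprimed seedlings. The unprimed 24 h array had the lowest of the 8 medians. Values with the unprimed 48 h array in its place are given for the plastid-encoded and seed storage lists. They are also given for the counts against unprimed seedlings and for the named genes opposite in sign. For the other lists they are not given, although their unprimed differences use the same array.

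Between 24 h and 8 h after priming, 1574 probe sets (6.92%) were higher at 24 h and 1283 (5.64%) were lower, 2857 in all (12.6%). In the unprimed pair 708 (3.11%) were higher and 786 (3.46%) lower, 1494 in all (6.57%). A 4-fold limit was passed upwards by 334 and downwards by 292 of them, and a 16-fold limit by 35 and 45. The 8 h value was at the floor for 40 of the 1574 and the 24 h value for 52 of the 1283. The balance of directions depended on the scaling. Centred on 11 reference genes (UBQ10, ACT2, PP2AA3 and others), whose primed differences had a median of -0.20, all primed differences moved up by 0.18, and the calls became 2115 higher and 887 lower. The share of higher among called probe sets was then 70.5%, against 55.1% on the deposited scale. A shift of 0.18 cannot change the sign of a difference that passed the limit, but it changes calls near it. Lower members less than 0.18 past the limit fall inside it, and higher ones within 0.18 of it are gained. The list counts below are on the deposited scale.

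Most probe sets called in primed seedlings stayed within 2-fold in unprimed seedlings, while the shared ones exceeded the share over all probe sets. Of the 1574 probe sets higher at 24 h in primed seedlings, 205 (13%) were also higher in the unprimed pair, 129 (8.2%) were lower there, and 1240 (78.8%) stayed within 2-fold. Of the 1283 lower ones, 134 (10.4%) were also lower in unprimed seedlings, 57 (4.44%) were higher, and 1092 (85.1%) stayed within 2-fold. Over all probe sets 3.11% were higher and 3.46% lower in the unprimed pair, and the shares above, in the same and in the opposite direction, exceed these. All probe sets include 5240 at the floor in all 8 arrays, which can be called in neither pair. Part of each excess over such shares, here and in the next comparison, follows from them, and the 4.44% lies nearest to its share. From the side of the unprimed calls, the shared probe sets made up 29% of those higher and 17% of those lower. The matching primed shares over all probe sets were 6.92% and 5.64%. Across 17506 probe sets above the floor in 1 or more arrays, the primed and unprimed differences correlated with r = 0.10 (rho = 0.04), a description over features of 4 arrays. The difference of the differences, primed minus unprimed, was at least 1 for 2043 probe sets (8.98%) and at most -1 for 1956 (8.6%).

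**Figure D1:**
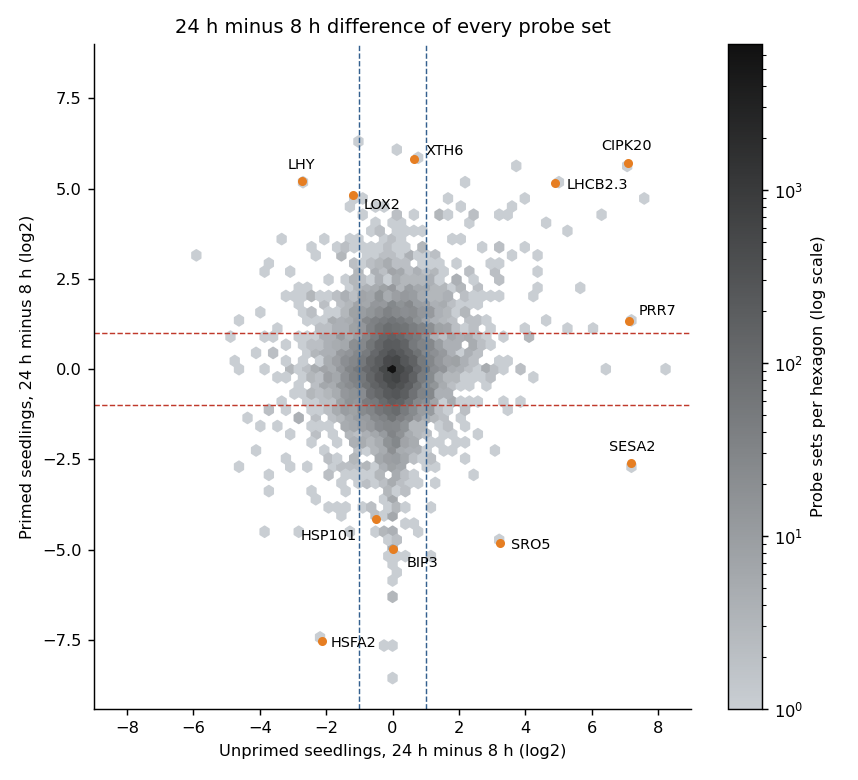
Difference between 24 h and 8 h in primed seedlings (vertical axis, log2) against that in unprimed seedlings (horizontal axis, log2) for 22746 probe sets, as hexagons shaded by the number of probe sets on a log scale, with dashed lines at 2-fold and some named genes in orange. HSFA2, BIP3 and HSP101 lie far below the lower red line near an unprimed difference of 0 to -2.13, LHCB2.3 and CIPK20 are high in both pairs, and LHY, LOX2, SRO5 and SESA2 lie in opposite directions.

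The levels of the called probe sets in the arrays that the call did not use show where they moved. Over the 1574 higher probe sets the median level of primed seedlings was 7.27, 7.26, 8.88 and 8.85 at 4, 8, 24 and 48 h, and that of unprimed seedlings was 8.52, 8.73, 8.80 and 8.87. They were thus low in the 2 early primed arrays and near the unprimed level in the 2 late ones. Over the 1283 lower probe sets the primed medians were 8.90, 8.60, 7.0 and 6.96, and the unprimed medians were 6.98, 6.92, 6.86 and 6.86. The primed 8 h and 24 h medians follow from the choice, whereas the other 6 do not.

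The other primed pair, 48 h against 4 h, shares no array with it. There, 2419 probe sets (10.6%) were higher at 48 h and 2302 (10.1%) lower. Both pairs had 1055 higher probe sets in common, 67% of those of 24 h against 8 h and 43.6% of those of 48 h against 4 h, and 9 went the opposite way. They had 894 lower ones in common (69.7% and 38.8%), and 40 went the opposite way. In unprimed seedlings the same 2 pairs shared 254 higher (35.9% and 31.5%) and 144 lower probe sets (18.3% and 25.9%), of 807 (3.55%) higher and 557 (2.45%) lower at 48 h than at 4 h. Both primed early arrays were at least 2-fold apart from both late ones, in the direction of the call, for 847 of the higher (53.8%) and 769 of the lower probe sets (59.9%).

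Many chaperone genes were lower at 24 h than at 8 h in primed seedlings, and most small heat shock proteins were still far above the unprimed level at 24 h. Of 17 probe sets for small heat shock proteins 10 were lower at 24 h and 1 was higher (median difference -1.14, or -0.96 when centred on the reference genes). Over all probe sets 5.64% were lower and 6.92% higher, and this and the lists below are read against those shares. In the unprimed pair 2 were higher and 1 lower (median -0.05). Primed seedlings exceeded unprimed seedlings by a median of 6.51 at 24 h and 8.79 at 8 h for this list. Because these medians and the 24 h to 8 h difference share arrays, they are given side by side only. HSP21, the plastid member, was at 14, 14.62, 13.58 and 10.85 at 4, 8, 24 and 48 h after priming and at the floor in all 4 unprimed arrays. Its difference between 24 h and 8 h was -1.04 (-0.86 when centred on the reference genes, which is inside the 2-fold limit), and all 4 primed values lay far above the floor. HSP22.0-ER, the endoplasmic reticulum member, was at 13.36 at 24 h and 14.15 at 8 h in primed seedlings, and at the floor in unprimed ones. The cytosolic HSP17.6C-CI was at 14.59 and 15.39 in primed seedlings at 24 h and 8 h, against 5.17 and 6.43 in unprimed seedlings.

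The largest difference of the list, -4.86, belonged to the probe set shared by HSP17.6A-CI and HSP17.8-CI, which was at 10.07 at 24 h and 14.93 at 8 h after priming, against 8.72 and 8.70 without it. It is named after its values were seen, since the naming rule leaves out probe sets of several genes. At 24 h it was 1.35 above unprimed seedlings, and HSP23.5-M (1.13), HSP14.7-CI (1.13), HSP15.4-CI (0.75) and HSP21.7-CI (0.16) were closer still. HSP23.6-M was at 10.48 at 24 h and 12.82 at 8 h in primed seedlings, against 3.97 and 4.03 in unprimed seedlings. HSP23.5-M was at 10.23 and 13.16 after priming, against 9.10 and 9.59 without it. HSP26.5-P was at 11.84 at 24 h and 13.90 at 8 h, against 2.85 and 2.71 without priming. HSP21.7-CI (-0.35) and HSP14.7-CI (0.55) stayed within 2-fold. HSP15.4-CI ran the other way, at 12.52 at 24 h and 11.41 at 8 h in primed seedlings, against 11.77 and 12.11 in unprimed seedlings. It was the single higher member of the list. HSP15.4-CI and HSP17.6-CII are named after their values were seen.

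HSP101 and several HSP70 and HSP90 genes were also lower at 24 h. HSP101, the disaggregase, was at 14.26, 12.85, 8.71 and 7.99 at 4, 8, 24 and 48 h in primed seedlings, and between 6.66 and 7.60 in unprimed ones. The difference between 24 h and 8 h was -4.14. The related CLPB4 of mitochondria (-1.80) and CLPB3 of plastids (-1.11, or -0.93 when centred on the reference genes) were also lower, so that all 3 members of the HSP100 list were. Of 16 probe sets for HSP70 and HSP110 proteins 10 were lower and none was higher (median -1.28), against 3 lower and none higher in the unprimed pair (median -0.07). HSP70-4 was at 12.02 at 24 h and 14.72 at 8 h after priming, against 8.93 and 10.51 without it. HSP70-2 was at 8.29 at 24 h in primed seedlings, lower than in any other array of the study, of which the lowest was 9.84. The constitutive plastid members cpHSC70-1 and cpHSC70-2, named after their values were seen, had differences of 0.43 and 0.15.

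Among 15 probe sets for HSP90 proteins and their co-chaperones, 7 were lower at 24 h and none higher (median -0.86), with 2 lower in the unprimed pair. HSP90.2 (-1.04) and the probe set shared by HSP90.3 and HSP90.4 (-1.13) fall inside the limit when centred on the reference genes. The shared probe set was also lower in unprimed seedlings (-1.30). They are named after their values were seen. HSP90.1, the inducible cytosolic HSP90, was at 10.20 at 24 h and 13.97 at 8 h after priming, against 7.45 and 9.12 without it. ROF1, an FK506-binding co-chaperone that acts in thermotolerance, was at 11.92 and 13.34 in primed seedlings, against 12.04 and 12.23 in unprimed seedlings. It had thus come to its unprimed level by 24 h, whereas its relative ROF2 was still higher in primed seedlings, at 11.50 at 24 h and 14.21 at 8 h, against 9.09 and 8.73. HOP3, which links HSP70 to HSP90, had a difference of -2.67.

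**Figure D2:**
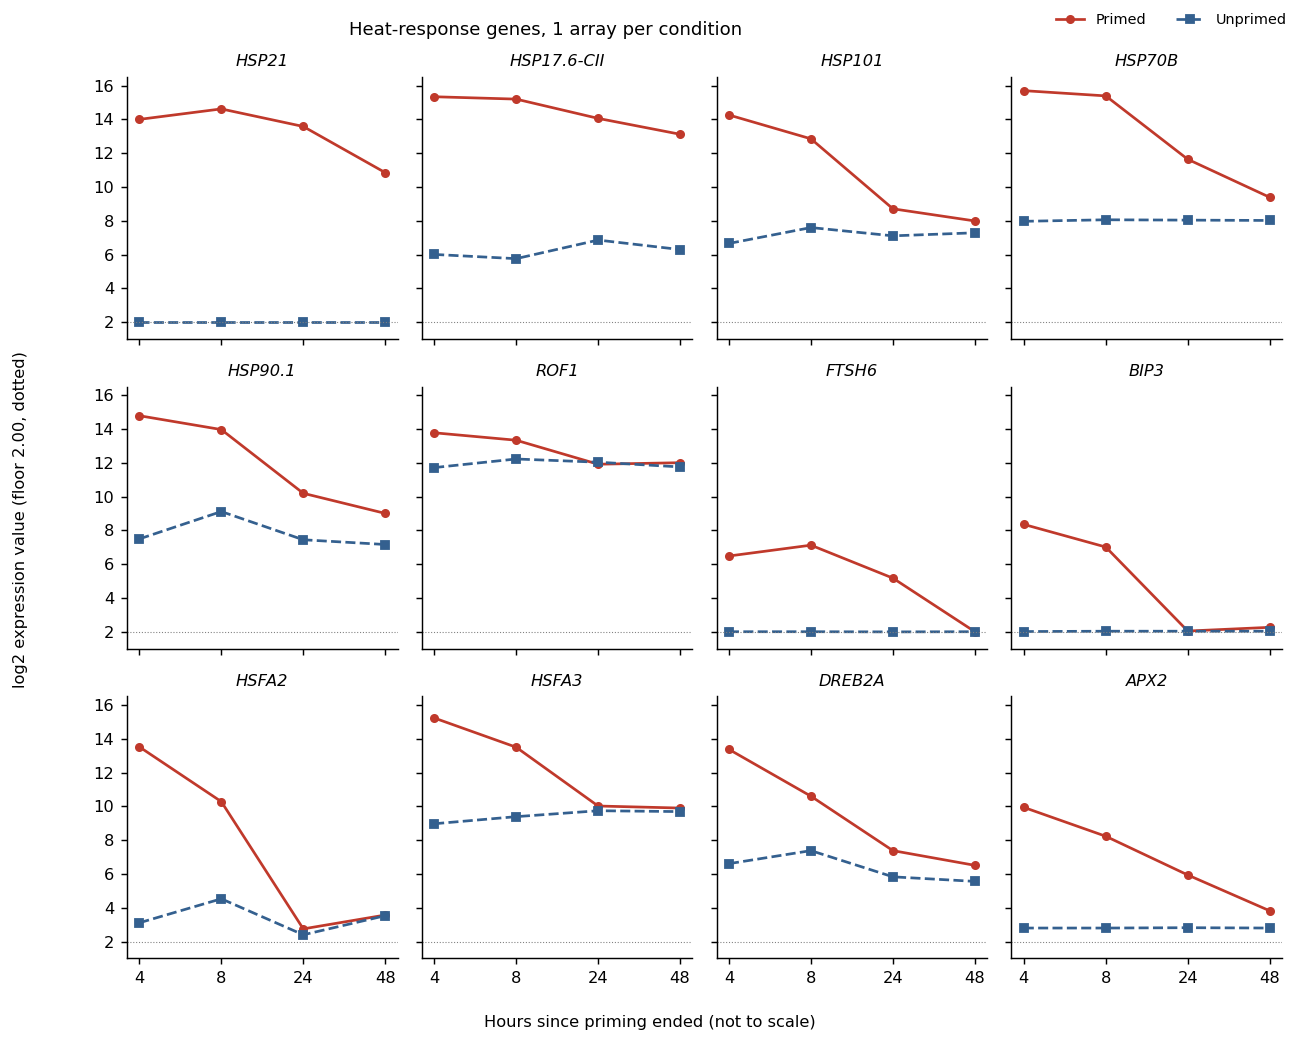
Log2 expression values (vertical axis) of 12 heat-response genes by hours since priming ended (4, 8, 24 and 48, horizontal axis, not to scale) in primed (red circles) and unprimed seedlings (blue squares), 1 array per point, with the floor of 2.0 dotted. HSP21 and HSP17.6-CII stay far above their unprimed values at 24 h and 48 h, while HSFA2, HSFA3, ROF1 and BIP3 are close to them at 24 h.

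A share of the heat shock factors and most of the other heat regulators were lower, and several were close to the unprimed level at 24 h. Of 21 heat shock factor probe sets 8 were lower at 24 h and none higher (median -0.75), against 2 lower in the unprimed pair. HSFA2, a factor that prolongs the heat response, was at 13.52, 10.28, 2.75 and 3.57 at 4, 8, 24 and 48 h after priming and at 3.11, 4.53, 2.4 and 3.53 without it. Its difference of -7.53 corresponds to a 185-fold lower value at 24 h. HSFA3 was at 10.02 and 13.50 at 24 h and 8 h after priming, against 9.74 and 9.39 without it. HSFA1E had 6.12 and 9.90 after priming, against 5.76 and 5.71 without it. HSFA2 and HSFA6B were also lower in the unprimed pair, unlike HSFA3 and HSFA1E. The unprimed difference of HSFA2 was -2.13. HSFA6B was at 3.05 and 7.42 in primed seedlings and at 3.3 and 7.15 in unprimed seedlings.

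Of 13 probe sets for other heat regulators 10 were lower and none higher (median -2.15), against 1 lower in the unprimed pair (median -0.35). DREB2A, a transcription factor upstream of HSFA3, was at 7.38 at 24 h and 10.60 at 8 h after priming, against 5.83 and 7.38 without it. FES1A, a nucleotide exchange partner of HSP70, was at 7.69 and 11.56, against 6.80 and 7.56. BAG6, a calmodulin-binding co-chaperone regulator, was at 10.69 and 13.57, against 8.65 and 8.18. At 24 h FES1A was 0.89 and BAG6 2.04 above unprimed seedlings. FTSH6 was at 6.49, 7.13, 5.18 and 2.01 at 4, 8, 24 and 48 h after priming and at the floor in all unprimed arrays. At 24 h it was thus 1.95 lower than at 8 h and still above the floor, which it reached in the 1 array of 48 h. The study's replicated RT-PCR differs from that value, with FtsH6 transcript in Col-0 still high at 48 h. Its immunoblots showed the protein beyond that time.

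The plastid proteases that the study listed, a choice made on these samples, had 3 of 38 probe sets lower and 2 higher. Beside FTSH6 the lower ones were ERD1 (-1.36), a Clp chaperone subunit, and ftsh10 (-1.13, or -0.95 when centred on the reference genes). The study's list holds ftsh10, although its introduction places the FtsH10 protein in mitochondria. DEG2 was at 11.56 at 24 h and 10.06 at 8 h after priming, against 11.74 and 11.43 without it, and DEG5 had a difference of 1.32. Of the study's thermomemory-associated genes, which were also chosen on these samples for lasting differences from unprimed seedlings, 41 of 60 in the higher list were lower at 24 h than at 8 h, and 5 were higher. Of 19 in its lower list 11 were higher at 24 h and none lower. These counts are not independent evidence of the direction. PMZ, a stress-associated zinc finger gene of the first list, was at 7.63 and 11.96 after priming, against 4.96 and 4.34 without it. CML37, a calmodulin-like gene, was at 4.02 and 8.03, against 2.45 and 2.88.

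The endoplasmic reticulum chaperones divided into a few inducible members that were lower at 24 h and a majority within 2-fold. Of 20 probe sets 4 were lower and none higher (median -0.45), with none called in either direction in the unprimed pair. Some lists share members, and BIP3 was counted among the lower ones of the HSP70 list too. BIP3, the stress-inducible binding protein, was at 2.05 at 24 h and 7.02 at 8 h after priming, and between 2.02 and 2.04 in unprimed seedlings, so that its 24 h value is at the floor. ERDJ3A was at 4.67 and 7.45, against 4.61 and 4.47, and DER1, which acts in protein export for degradation, was at 9.29 and 11.12, against 8.88 and 9.04. These 3 genes stood at or within 0.5 of their unprimed value at 24 h.

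Several of the lowest differences belonged to transcripts high in the early primed arrays and at or near the floor in all others. AT1G71000, annotated with a DnaJ domain, was at 13.26, 10.80, 2.15 and 2.0 at 4, 8, 24 and 48 h after priming and at the floor in unprimed seedlings. The difference of -8.65 is limited by the floor. AT1G75600 (a putative histone H3.2) was at 2.02 at 24 h and 9.55 at 8 h, CUL2 (a cullin) at 2.0 and 8.40, and AT1G18830 (a WD-40 repeat protein) at 2.02 and 8.44, each with all unprimed values at the floor. AT2G42150, a bromodomain protein, and AT3G19920 had the same form. ZAT6, a zinc finger factor, was at 2.77 and 7.96 after priming, against 2.96 and 3.1 without it. Beyond these, a putative U5 snRNP helicase (AT2G42270) was at 3.97 at 24 h and 8.94 at 8 h after priming, against 3.93 and 3.99 without it.

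Some transcripts assigned to the mitochondrial genome were lower too. Of 43 such probe sets 13 were lower at 24 h and none was higher, 22 being at the floor in both primed arrays (median -0.02). In unprimed seedlings 1 was lower. ATMG00060, for subunit 5 of NADH dehydrogenase, was at 10.98, 9.07, 4.52 and 2.02 at 4, 8, 24 and 48 h after priming and at the floor without it. ATMG00070, for subunit 9, was at 3.77 and 6.61 at 24 h and 8 h, against 3.0 and 2.83 in unprimed seedlings. Among nuclear genes that respond to disturbed mitochondria, AOX1A, the alternative oxidase, was at 9.98 and 11.81 after priming, against 8.91 and 9.28 without it. NDB2, an alternative NADH dehydrogenase, was at 6.20 and 8.49, against 5.27 and 5.84. Of the 24 genes of reactive oxygen and mitochondrial stress 6 were lower and 3 higher. APX2, a heat-inducible ascorbate peroxidase, was at 5.94 and 8.23, against 2.82 and 2.80.

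Cold- and ABA-responsive genes were lower in part. Of 23 probe sets 8 were lower and 2 higher (median -0.33), and in the unprimed pair 2 were lower and 5 higher. RD29A was at 8.49 at 24 h and 12.28 at 8 h after priming, against 8.53 and 7.41 without it. COR15A was at 4.34, 8.12, 5.20 and 6.25 at 4, 8, 24 and 48 h after priming and at 2.35, 2.35, 4.73 and 5.26 without it. Its primed value was thus highest at 8 h, while the unprimed values were higher in both late arrays. COR27, a regulator under clock and cold control, was at 9.21 and 12.45, against 9.96 and 10.05. CBF2, a cold-response factor, was one of the 2 higher ones, at 5.64 and 3.18 after priming and 4.13 and 3.18 without it. MIPS2, which makes inositol for galactinol, was at 7.87 and 10.83, against 4.77 and 5.44, one of 3 lower probe sets among 12 for galactinol and raffinose. Of 21 autophagy probe sets 4 were lower and 1 higher, with ATG18A at 4.80 and 8.00 after priming, against 4.79 and 4.90 without it.

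A smaller set of genes had its highest primed value at 8 h, without being low at the other times in every case. For 168 probe sets (13.1% of the 1283 lower ones) the primed 8 h value was at least 2-fold above each of the other 3 primed arrays. AT1G18830 is among these and also among the 769 with both early arrays apart from both late ones, so that the sets overlap. BGLU28, a beta-glucosidase of the sulfur response, was at 2.01, 7.34, 2.16 and 2.23 at 4, 8, 24 and 48 h after priming and at the floor without it. DIN2, a glucosidase known from dark-treated leaves, was at 2.08, 6.21, 3.53 and 2.76, and below 2.2 in unprimed seedlings at 8 h and 24 h. ELI3-2 was at 4.24, 10.65, 7.49 and 4.81, and at 2.24 or less in unprimed seedlings, so that it was above the unprimed value at every time. These 3 genes had no such peak in unprimed seedlings. Others were highest at 8 h there too. MYB12, an activator of flavonol synthesis, was at 2.93 at 24 h and 6.22 at 8 h after priming and at 3.82 and 7.49 without it. HY5, a light-signalling factor, was at 9.70 and 11.16, against 9.55 and 11.08. The part of the hour of day in these was not tested.

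On the other side, most genes of chlorophyll synthesis were higher at 24 h. Of 22 probe sets of chlorophyll synthesis 16 were higher and none lower (median 1.22), against 2 higher and none lower in the unprimed pair (median 0.17). Primed seedlings stood at a median of 0.03 relative to unprimed ones at 24 h and of -1.14 at 8 h. HEMA1, which makes the first dedicated precursor, was at 12.36 at 24 h and 10.45 at 8 h after priming, against 12.30 and 11.69 without it. GUN4, which stimulates magnesium chelatase, was at 10.87 and 8.75, against 9.85 and 10.27. CHLH, a subunit of that chelatase, was at 14.27 and 12.52, against 14.13 and 13.54. All 3 were at or above the unprimed value at 24 h and below it at 8 h. CAO, which converts chlorophyll a to b, was at 11.13 and 6.92 after priming and also higher in unprimed seedlings, at 10.53 and 8.15.

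A minority of photosystem and antenna genes were higher in each series, and the others stayed within 2-fold except for 1 lower in unprimed seedlings. In primed seedlings 14 of the 34 were higher and none lower (median 0.76), and 9 were higher and 1 lower in unprimed seedlings (median 0.44). The 34 also held the Rubisco small subunit and RCA, which belong to neither class, and RCA was among the 14 higher. LHCB2.3, an antenna protein, was at 13.33 at 24 h and 8.19 at 8 h after priming, against 13.82 and 8.91 without it. LHCB4.2 was at 14.53 and 12.37, against 14.73 and 13.06, and LHCB6 at 14.18 and 12.03, against 14.35 and 12.90. These antenna genes were thus higher in the unprimed pair too, unlike most genes of chlorophyll synthesis. RCA, the Rubisco activase and a shoot marker, differed from them, at 14.38 and 13.28 after priming, against 13.90 and 14.24 without it. The 2 other shoot markers had primed differences of 0.15 and 0.50.

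**Figure D3:**
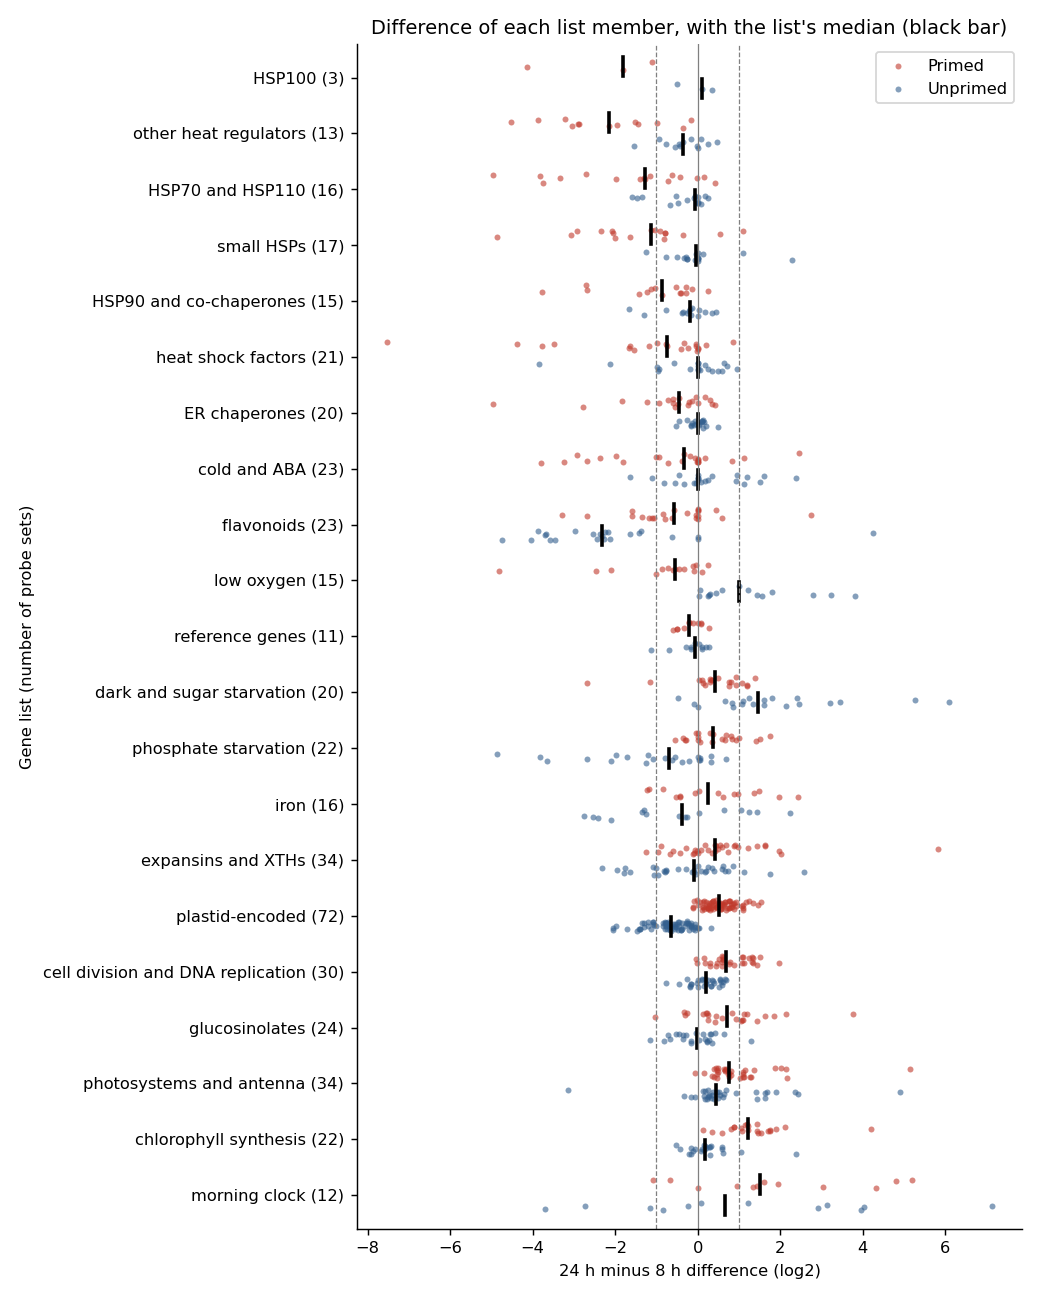
Log2 difference between 24 h and 8 h (horizontal axis) of every probe set of 21 gene lists (rows, with the number of probe sets), in primed seedlings (red, upper points of each row) and unprimed seedlings (blue, lower points), with each list's median as a black bar and dashed lines at 2-fold. Chaperone and heat-regulator lists have primed medians between -2.15 and -0.45 and unprimed medians between -0.35 and 0.10, while chlorophyll synthesis has a primed median of 1.22.

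Plastid-encoded probe sets had medians of opposite sign in the 2 series. Of 72 plastid-encoded probe sets 9 were higher and none lower in the primed pair (median 0.52), whereas none was higher and 19 were lower in the unprimed pair (median -0.66). The primed difference exceeded the unprimed one at least 2-fold for 44 of them. ATCG00180, for a subunit of the plastid RNA polymerase, was at 12.16 at 24 h and 10.69 at 8 h after priming, against 11.58 and 12.35 without it. ATCG00150, for a subunit of the plastid ATP synthase, was at 8.17 and 6.93, against 6.97 and 9.01. The unprimed side of this contrast rests on the unprimed 24 h array, which had the lowest 5′ to 3′ ratio of control transcripts, and with the unprimed 48 h array in its place 1 was higher and 1 lower (median -0.24).

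Some genes of cell division and of growing cell walls were higher at 24 h, while most members of both lists stayed within 2-fold. Of 30 probe sets for cell division and DNA replication 12 were higher and none lower (median 0.69), with none called in the unprimed pair (median 0.21). The mitotic cyclin gene CYCB2;4 was at 7.14 at 24 h and 5.17 at 8 h after priming, against 7.27 and 7.10 without it. PLE and HIK, which act in the dividing cell plate, had differences of 1.50 and 1.43, and the Aurora kinase gene AUR2 was at 10 and 8.66, against 10.04 and 10.02. These mitotic genes were near the unprimed value at 24 h and below it at 8 h. Genes of DNA replication differed less, the MCM2, MCM3, MCM5 and MCM7 probe sets by 0.15 to 0.48. They are named after their values were seen.

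Expansins and xyloglucan-modifying enzymes loosen and rebuild the wall of expanding cells. Of 34 probe sets 7 were higher and 1 lower at 24 h in primed seedlings (median 0.42), against 3 higher and 8 lower in unprimed seedlings (median -0.08). XTH6 was at 3.61, 3.62, 9.44 and 8.96 at 4, 8, 24 and 48 h after priming and between 8.59 and 9.72 without it. EXPB3 was at 10.36 and 8.35 at 24 h and 8 h, against 9.50 and 10.32. EXPA18, known from root hairs, was at 7.31 and 5.33, against 7.33 and 8.10. XTH13 was at 8.11 and 3.57, against 7.79 and 8.96.

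Some root markers were higher too. Of 11 probe sets 5 were higher at 24 h in primed seedlings and none lower (median 0.18), against 1 higher and 1 lower in the unprimed pair (median -0.51). PRP1, a wall protein, was at 6.74 at 24 h and 2.45 at 8 h after priming, against 6.58 and 7.52 without it. PRP3, of root hairs, was at 8.75 and 5.67, against 7.75 and 9.30. LRX1, also of root hairs, was at 7.88 and 6.57, against 7.29 and 8.22. The endodermis and stele genes CASP1, SCR and SHR had differences of -0.50, 0.18 and -0.19, within 2-fold, whereas the 5 higher ones were PRP1, PRP3, LRX1, COBL9 and PYK10. In a bulk sample fewer cells of a type and less RNA per cell cannot be told apart. COBL9, CASP1, SCR and SHR are named after their values were seen.

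**Figure D4:**
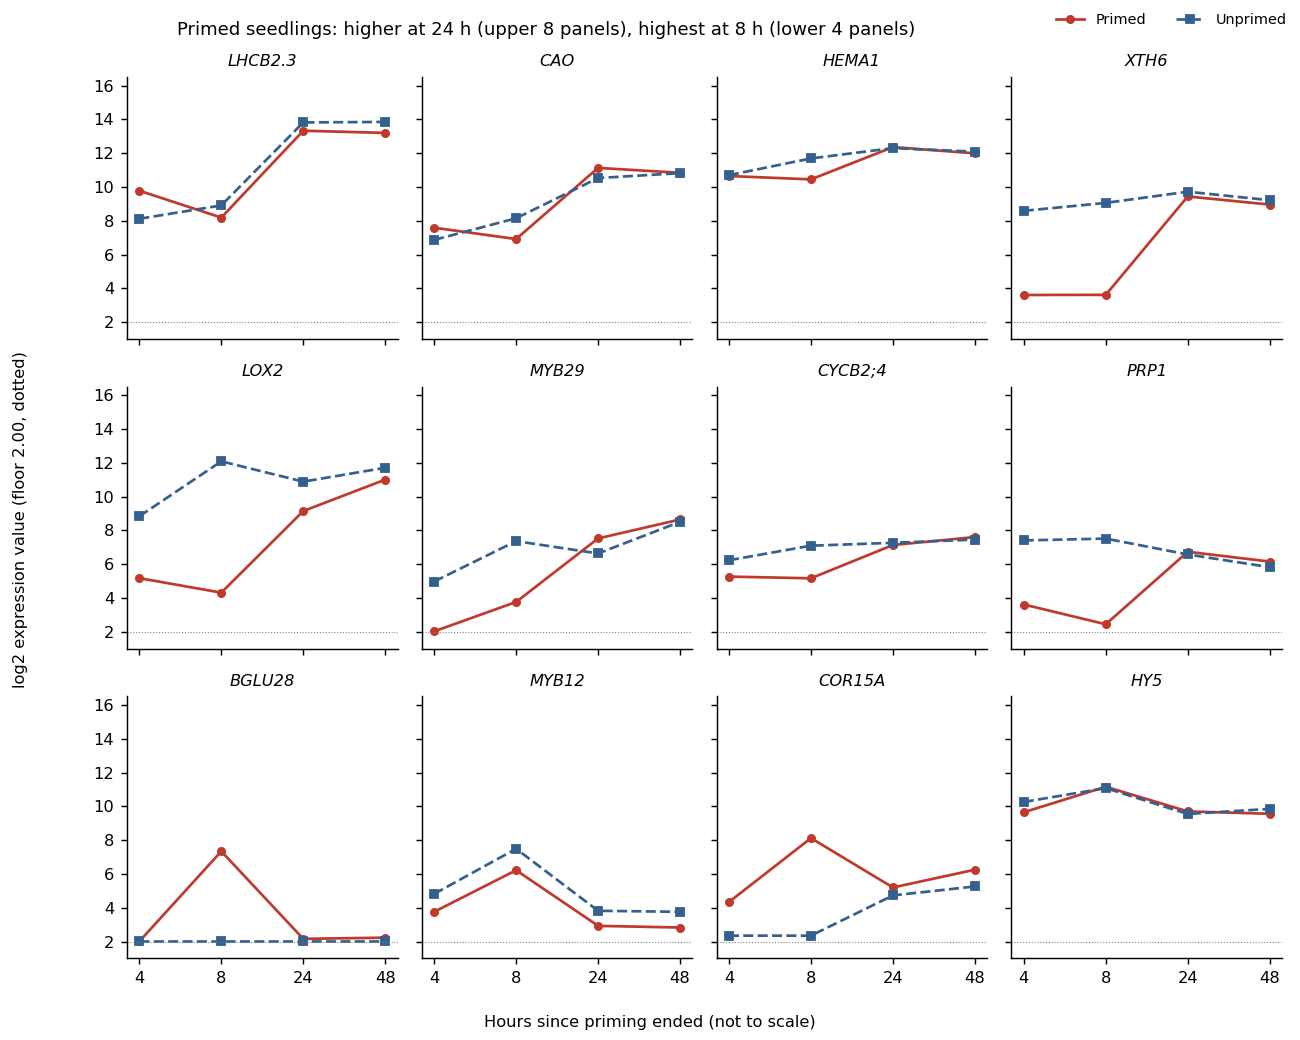
Log2 expression values (vertical axis) by hours since priming ended (4, 8, 24 and 48, horizontal axis, not to scale) of 8 genes higher at 24 h than at 8 h after priming and of 4 genes whose primed value was highest at 8 h, in primed (red circles) and unprimed seedlings (blue squares), 1 array per point. XTH6, LOX2 and PRP1 are low in both early primed arrays only, LHCB2.3 and HY5 have similar 24 h and 8 h values in both series, and BGLU28 is at 7.34 in the primed 8 h array and at 2.23 or less in all others.

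Aliphatic glucosinolates are sulfur-rich defence compounds made from methionine. Of 24 probe sets of the glucosinolate list 10 were higher and 1 lower at 24 h after priming (median 0.71), against 1 higher and 1 lower without it (median -0.01). MYB29, an activator of the aliphatic branch, was at 2.03, 3.77, 7.53 and 8.65 at 4, 8, 24 and 48 h after priming and at 4.98, 7.37, 6.64 and 8.51 without it. FMOGS-OX1, which oxidises the side chain, was at 8.10 and 5.97 at 24 h and 8 h, against 8.72 and 8.68. MAM1 and BCAT4, of chain elongation, had differences of 1.63 and 1.43. All 4 belong to the methionine-derived branch. CYP79B2, CYP79B3 and CYP83B1 of the tryptophan-derived branch had differences of 0.26, 0.84 and -0.33, and MYB51, a regulator of that branch, was the lower member at -1.03. These last 4 are named after their values were seen. Of the 17 probe sets of the sulfur list 3 were higher and 3 lower (median -0.42), and the 3 higher ones were sulfate transporter genes. SULTR2;1 was at 8.79 and 6.81 after priming, against 10.35 and 9.33 without it, and SULTR1;2 at 9.65 and 7.82, against 9.67 and 9.11. The third, SULTR4;2, differed by 1.16, while SULTR2;2 (0.33) and SULTR4;1 (-0.60) stayed within 2-fold, and SULTR1;1 had a difference of 0. These 4 are named after their values were seen.

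LOX2, which begins jasmonate synthesis in plastids, was at 5.18, 4.32, 9.15 and 11.01 at 4, 8, 24 and 48 h after priming and at 8.84, 12.09, 10.89 and 11.71 without it. The primed values were below the unprimed ones at every time, and least so at 48 h. CORI3, a jasmonate-responsive gene, was at 8.73 at 24 h and 6.27 at 8 h, against 7.37 and 8.23. The jasmonate list as a whole was balanced, with 3 of 26 probe sets higher and 2 lower (median 0.02). The lower ones were the repressor genes JAZ1 (-1.06) and JAZ3 (-1.05), which were inside the limit when centred on the reference genes (-0.88 and -0.87). THAS1, a triterpene synthase of roots, was at 6.71 and 2.02 after priming, against 4.47 and 5.47 without it.

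Clock genes moved in both series, and only some of them alike. In primed seedlings 8 of 12 morning-clock probe sets were higher at 24 h and 1 was lower (median 1.52), against 6 higher and 3 lower in unprimed seedlings (median 0.66). LHY, a morning-expressed repressor, was at 2.04, 2.03, 7.23 and 4.15 at 4, 8, 24 and 48 h after priming and at 2.03, 5.40, 2.67 and 2.67 without it. CCA1, its partner, was at 5.31, 5.84, 8.87 and 7.46 after priming and at 2.0, 2.01, 4.92 and 5.12 without it. CCA1 was thus higher in both late arrays of both series, and LHY was so in primed seedlings alone. LNK2, a coactivator of morning genes, was higher at 24 h in both series, at 9.37 and 4.57 after priming and 7.65 and 3.70 without it. RVE1 was at 10.54 and 8.59, against 8.32 and 9.15.

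PRR7, a daytime repressor, was at 9.99, 8.53, 9.87 and 9.95 at 4, 8, 24 and 48 h after priming and at 4.86, 2.89, 10.03 and 10.03 without it. The late values were alike and the early unprimed values were far lower. PRR5 showed the same form, at 10.44 at 24 h and 9.36 at 8 h after priming, against 10.83 and 7.83 without it. GI, named after its values were seen, was at 9.15 and 9.41, against 9.88 and 5.71. Of the 13 evening-clock probe sets 2 were higher and 4 lower in primed seedlings (median -0.55), against 3 higher and 1 lower in unprimed seedlings (median 0.03). ELF4, of the evening complex, hardly differed between the series, at 11.55 and 13.12 after priming and 11.75 and 13.10 without it. TOC1 was at 9.34 and 10.30, against 9.96 and 10.37. The light-signalling genes PIF4 and PIF5 also had like differences in both series, 3.25 and 3.40 after priming and 3.54 and 4.07 without it.

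**Figure D5:**
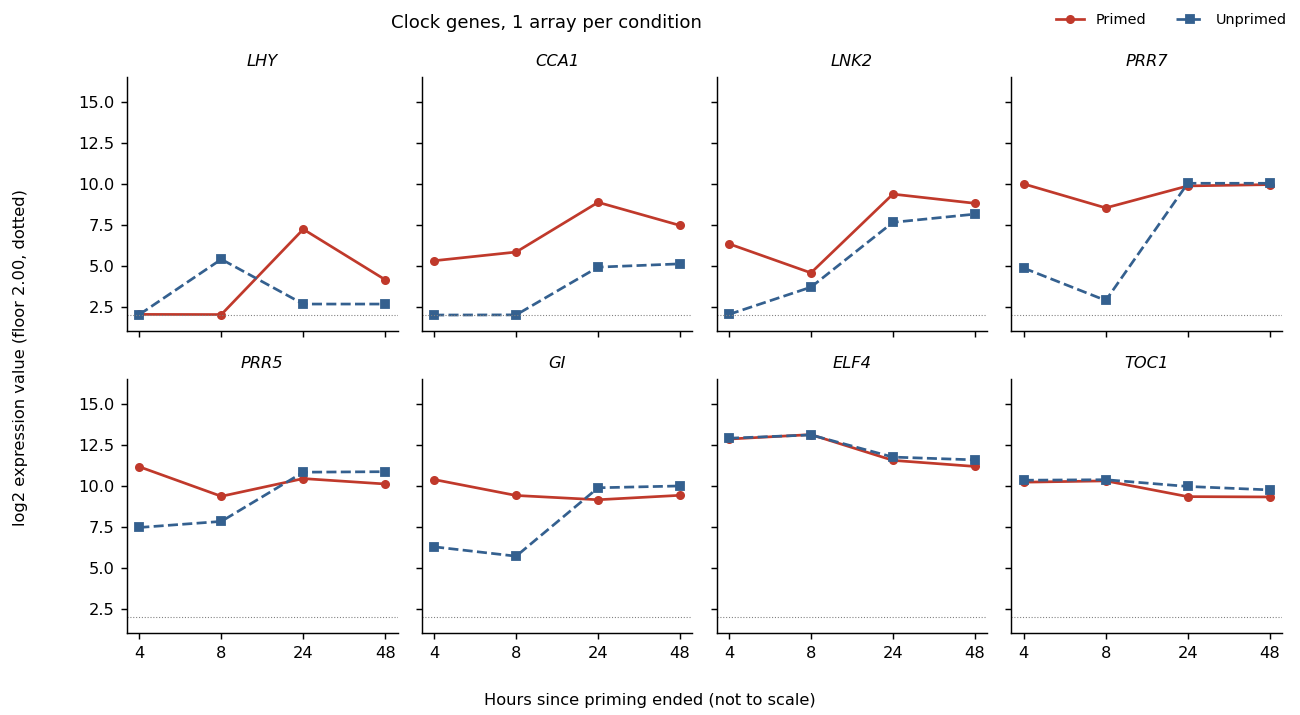
Log2 expression values (vertical axis) of 8 clock genes by hours since priming ended (4, 8, 24 and 48, horizontal axis, not to scale) in primed (red circles) and unprimed seedlings (blue squares), 1 array per point. PRR7, PRR5 and GI differ between the series at 4 h and 8 h and are close to each other at 24 h, ELF4 and TOC1 have similar 24 h and 8 h values in both series, and LHY is high at 24 h in primed seedlings.

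Several lists had more called members in the unprimed than in the primed pair. Of 20 probe sets for dark and sugar starvation 4 were higher and 2 lower at 24 h after priming (median 0.42), against 14 higher and none lower without it (median 1.47). ASN1, an asparagine synthetase repressed by sugar, was at 7.23 at 24 h and 6.03 at 8 h after priming, against 8.10 and 2.0 without it. SEN1 was at 10.75 and 9.56, against 11.82 and 6.54. In both genes the unprimed 8 h array was the low one. Of 23 flavonoid probe sets 8 were lower and 1 higher after priming (median -0.57), against 19 lower and 1 higher without it (median -2.31). MYBL2, a repressor of anthocyanin synthesis, was the higher one in both series, at 12.80 and 10.05 after priming and 13.07 and 8.82 without it. The activator gene MYB111 was at 7.27 and 8.85, against 5.21 and 9.07.

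Nutrient-response genes showed a like contrast. Of 22 probe sets for phosphate starvation 4 were higher and none lower after priming (median 0.37), against none higher and 10 lower without it (median -0.71). PAP17, a secreted phosphatase, was at 8.42 and 7.75, against 8.27 and 10.94. Of 16 for iron 4 were higher and 2 lower after priming, against 4 higher and 7 lower without it. NAS4, which makes the iron chelator nicotianamine, was at 9.53 and 7.56 after priming, against 8.40 and 10.82 without it. OPT3, an iron transporter of the phloem, was at 9.84 and 8.36, against 9.24 and 10.59. For PAP17, NAS4 and OPT3 the unprimed value was higher at 8 h than at 24 h. Low-oxygen genes ran the other way, with none of 15 higher and 4 lower after priming (median -0.54), against 8 higher and none lower without it (median 1.01). PDC1, which begins ethanol fermentation, was at 8.52 and 10.61, against 10.41 and 8.97.

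Seed transcripts moved in unprimed seedlings. SESA2, a 2S albumin, was at 2.0 at 24 h and 4.61 at 8 h after priming, against 9.19 and 2.01 without it. Of 14 seed storage probe sets 1 was higher and 2 lower in primed seedlings, 7 being at the floor in both arrays, and 8 were higher and none lower in unprimed seedlings (median 2.38). SESA2 was at 6.89, 2.01, 9.19 and 2.52 in unprimed seedlings at 4, 8, 24 and 48 h, so that 2 of the 4 unprimed arrays carried it. With the unprimed 48 h array in place of the 24 h one, 1 of the 14 was higher and 3 were lower (median 0). With the unprimed 48 h array in place of the 24 h array, 1838 and 1870 probe sets differed at least 2-fold upwards and downwards between the primed and unprimed differences, close to the 2043 and 1956 above. SRO5, a stress-responsive gene, was at 4.14 and 8.96 after priming, against 7.47 and 4.24 without it.

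The highest primed differences included genes of unknown function. AT1G13650 was at 2.94, 2.04, 8.28 and 7.06 at 4, 8, 24 and 48 h after priming and at 2.04, 5.53, 4.42 and 5.64 without it, a difference of 6.24 from an 8 h value at the floor. AT3G46880 was at 8.70 at 24 h and 2.69 at 8 h, against 8.09 and 7.86. CIPK20, a protein kinase gene, was at 9.79 and 4.08 after priming and at 9.11 and 2.01 without it. ROPGEF11 was likewise higher in both series, by 5.55 and 3.79. AT1G09500, of a cinnamyl-alcohol dehydrogenase family, was at 6.59 at 24 h and at the floor at 8 h, and between 2.0 and 2.26 in all other arrays. It was thus one of 98 probe sets (6.23% of the 1574 higher ones) whose primed 24 h value was at least 2-fold above each other primed array, as were LHY, CCA1 and RVE1. For 179 (11.4%), among them LHCB2.3, GUN4, PIF4, PRP1 and XTH13, the primed 8 h value was at least 2-fold below each other primed array.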

How the data were processed

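The deposited table held log2 expression values of 8 ATH1 arrays, which the authors normalized between arrays before they deposited them. GCRMA and RMA are the methods that the submitters' processing notes mention, with no version, and a genome build is not given in these sources. A second deposited table held identical values, and 4 columns with the authors' own differences were not used. Of the 22746 probe sets without array controls, 21194 were assigned to 1 gene, 1078 to several and 474 to none. Gene names came from the file and from the RefSeq table of TAIR10.1.

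The primed 8 h value was subtracted from the primed 24 h value for every probe set, and likewise in unprimed seedlings. A difference of at least 1 was called. With 1 array per condition this difference has no replicate error and was not tested, and precision is limited by that number. Gene lists were counted and their medians taken over all members on the array. The members and lists were chosen with earlier results of these data known.

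Named genes were taken from probe sets of 1 gene with a value of at least 4 in a primed 24 h or 8 h array. They were the 15 highest and 15 lowest primed differences, the 10 highest and 10 lowest against unprimed, and up to 5 members per list with the largest differences. To these came the memory components HSP21, FTSH6, HSFA2, ROF1 and HSP101, and the 5 small heat shock proteins nearest to 0. HSA32, a further memory component in the naming rule, was not looked up. Promoters, which the naming rule also covered, were not searched or printed, since no sequence was used here. Other scalings, filters, limits and harvest times were tried. The counting was tested on simulated data. Python 3.11.15, pandas 2.3.3, numpy 2.4.6, scipy 1.17.1 and matplotlib 3.10.9 were used.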

Additional observations from a re-analysis of the deposited data

Results flagged for a closer look

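For 28 of the 223 named genes the difference between 24 h and 8 h was at least 2-fold in both series and opposite in sign. Over all probe sets 186 (0.818%) were so, and 12 of the 28 were named for a large difference between the series, so that the count follows in part from the naming rule. With 1 array per condition the difference between the series was not tested. The unprimed 24 h array, with the lowest 5′ to 3′ ratio of control transcripts, enters every one of these values. With the unprimed 48 h array in its place, a setting chosen after seeing the data, 19 of the 28 were still opposite past the limit, and AT1G13650, BGAL16, LOX2, SESA2, SRO5, THAS1 and the 3 plastid-encoded genes were not. With values under 4 set to 4 the primed difference was 0.26 for WRKY38, 0.43 for BHLH101 and -0.61 for SESA2, and centred on the reference genes it was -0.84 for HRE1 and -0.97 for BCAT2, all inside the limit.

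The 19 genes that were higher at 24 h after priming and lower without it included regulators. LHY differed by 5.20 in primed seedlings and by -2.73 in unprimed seedlings, WRKY38 by 1.89 and -1.18, BHLH101 by 2.43 and -1.24, and WOX2 by 3.29 and -2.49. Metabolic and defence genes had the same form. LOX2 differed by 4.83 after priming and by -1.20 without it, THAS1 by 4.69 and -1.0, MES18 by 2.73 and -3.86, and MLP168 by 3.55 and -3.23. For wall proteins the values were 4.54 and -1.17 (XTH13) and 3.08 and -1.55 (PRP3). The iron genes NAS4 and OPT3 differed by 1.97 and -2.42 and by 1.48 and -1.35. The plastid-encoded ATCG00150 differed by 1.24 after priming and by -2.04 without it, ATCG00190 by 1.53 and -1.09, and ATCG00360 by 1.18 and -1.40. Genes without a common name were AT1G13650 (6.24 and -1.11), AT2G27420 (2.77 and -3.09), AT3G28270 (3.19 and -5.85) and AT5G15780 (3.01 and -3.72).

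The 9 genes that were lower at 24 h after priming and higher without it were mostly stress genes. RD29A differed by -3.79 in primed seedlings and by 1.12 in unprimed seedlings, COR15A by -2.92 and 2.38, ZAT10 by -3.26 and 1.34, and SRO5 by -4.82 and 3.23. The low-oxygen genes PDC1 and HRE1 differed by -2.09 and 1.44 and by -1.02 and 1.80. BCAT2 differed by -1.15 after priming and by 3.45 without it, BGAL16 by -5.13 and 1.12, and SESA2 by -2.61 and 7.18.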

How the results depend on the processing

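Quantile normalization, centring on the reference genes or on each array's median, leaving out or raising values under 4, and probe sets of 1 gene kept all 4 counts of called probe sets within 1.5 times of 1574 higher and 1283 lower in primed seedlings and of 2043 and 1956 for primed against unprimed. Centring on the reference genes gave 2115 higher and 887 lower. With a 1.5-fold limit 3067 were higher and 2910 lower, and 3643 and 3966 differed from unprimed seedlings upwards and downwards. With a 4-fold limit these were 334, 292, 522 and 412. With a common control of both times, the average of the 4 unprimed arrays, the control cancels and the counts against unprimed are 1574 and 1283. Exchanging the primed or the unprimed 24 h array for the 48 h one, or an 8 h array for the 4 h one, was chosen after seeing the data. The primed 4 h array in place of 8 h gave 2323 higher and 2115 lower, and the other exchanges stayed within 1.5 times.

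Of the list medians recomputed, 273 stayed and 13 moved by more than 0.28, the SD of the primed difference over the reference genes, and of the values of named genes 1497 stayed and 44 moved, all of the 44 with values under 4 set to 4. These totals include the identical second table. Neither that table nor a filter on probe sets can change a named gene's value. The centrings shift all primed differences alike, by 0.18 and 0.02, which is less than 0.28. Most of the 1497 were thus bound to stay. No value past the limit changed sign, which for named genes only quantile normalization could have brought about. No paired analysis was possible because the comparison of 24 h with 8 h has 1 array on each side and rests on no test. Harvest times pair primed with unprimed arrays only in the difference of differences. With 1 array a side no replicate could be left out. Values at the floor give only a lower limit of a change.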
